A study of Mus musculus with 28 samples.

Results

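Thymocytes that carry an Lmo2 transgene and a deletion of Ldb1 were compared with wild-type thymocytes, both sorted as the DN2/3 subset, to ask what still differs from wild type when the transgene is present without Ldb1. The members were chosen by their titles: 5 libraries titled Lmo2tg; Ldb1-KO DN2/3, called Ldb1-KO here, and 4 titled Wild type DN2/3, together 9 of the 28 libraries of the series. The other libraries are 5 Lmo2tg DN2/3, which carry the transgene with Ldb1 intact, and 14 of the DN4 subset in the same 3 genotypes. DN2/3 and DN4 are successive stages of thymocytes with neither CD4 nor CD8 on their surface. Wild type is C57BL/6 by the series design text, and the growth protocol also names a CD45.1 congenic strain. The Ldb1-KO mice carry Lmo2-tg with floxed Ldb1. The protocol names Lck-Cre, Rag1-Cre and IL-7Ra-Cre lines and a Rosa26-EYFP reporter, and the sources used here do not give which of them each Ldb1-KO library carried, the promoter of the transgene or the age of the mice. The design text counts 4 Ldb1-KO replicates and the labels 5, which were followed. Wild-type libraries follow another name pattern than all transgenic ones, so library series and genotype cannot be told apart in this comparison. Nothing in the labels says that replicates came from separate mice, so p-values here reflect the spread among libraries, which may be technical.

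LMO2 is a small LIM-domain protein that does not bind DNA itself. It joins DNA-binding partners, the basic helix-loop-helix proteins TAL1 or LYL1 with an E protein at CANNTG sequences and GATA factors at GATA sequences, through the bridging protein LDB1. In the thymus LMO2 is normally switched off as cells commit to the T lineage, and its forced expression there gives thymocytes that renew themselves and can progress to T-cell leukemia. HHEX and LYL1 are known as targets and partners in that process.

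Adjusted p below is edgeR's quasi-likelihood p after Benjamini-Hochberg adjustment over all genes tested. Levels are CPM, each gene's counts over its library's total as edgeR scales it. Fold changes are fitted log2 values with an approximate standard error (SE). This SE was worked back from the test, as the absolute log2 fold divided by the square root of its F value. A gene is called changed at adjusted p below 0.05. Of 14371 genes tested, 1374 (9.56%) were called, 1003 (6.98%) higher and 371 (2.58%) lower in Ldb1-KO, and 642 (4.47%) of them differed over 2-fold, 555 (3.86%) higher and 87 (0.605%) lower. Groups of libraries did not overlap in 1624 genes (11.3%) higher and 1443 (10%) lower in Ldb1-KO. The 1374 calls were fewer without wild-type library 1 (764), 3 (877) or 4 (880) or Ldb1-KO library 3 (863). They were more when the 9 libraries were fitted alone (3037, 1931 higher and 1106 lower) or with the replicate number as a block (2449, 1508 higher and 941 lower). Total counts were 56043007 to 106933472 in the wild-type libraries and 28095652 to 68146602 in the Ldb1-KO libraries. In a multidimensional scaling of all 28 libraries the first axis, which held 43.5% of the variation, placed the wild-type DN2/3 libraries at -2.16 to -2.07, Ldb1-KO at -1.16 to -0.44 and Lmo2tg at 1.65 to 2.18, with Ldb1-KO library 2 nearest wild type. Against the same wild-type libraries, 4242 genes (29.5%) were called in Lmo2tg, and 2312 (16.1%) between Ldb1-KO and Lmo2tg. These 3 comparisons share libraries, so their values are given side by side only. In 3 of the 4 wild-type libraries both Xist and Ddx3y, a female and a male marker, were above 10 CPM, so those libraries hold RNA of both sexes. Of the 5 Ldb1-KO libraries 3 had Ddx3y and 2 had Xist above 10 CPM and none had both, so the groups differ in the sexes they hold, and the part of this in the calls was not tested. Of 12 markers of DN2/3 cells all were detected, while Cd4, which the label of CD4 T cells names, was at 0.980 ± 0.246 CPM (SD) in wild type.

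**Figure D1:**
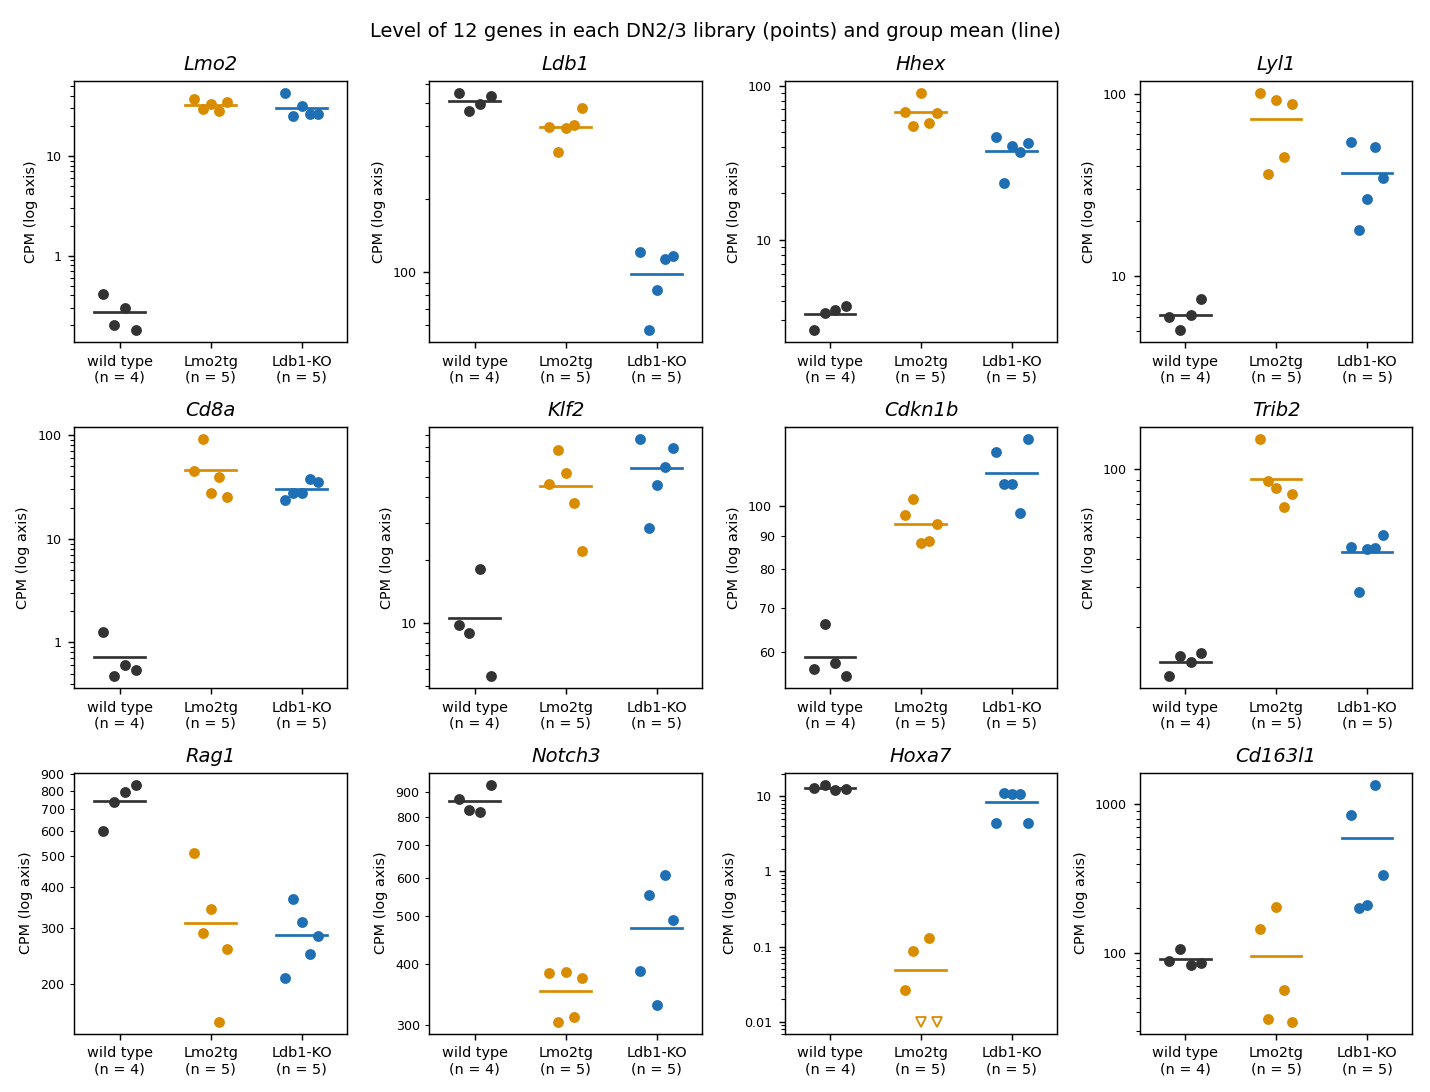
Level of 12 genes in each DN2/3 library, in CPM on a log axis, for wild type (4 libraries), Lmo2tg (5) and Ldb1-KO (5); points are libraries, lines are group means, and open triangles are values under 0.01 CPM drawn at 0.01. Lmo2 was alike in both transgenic groups, Ldb1 was lowest in Ldb1-KO, and Hhex, Lyl1, Cd8a, Klf2 and Cdkn1b were above every wild-type library in all 5 Ldb1-KO libraries.

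Ldb1 (chr19:46031570-46045214, mm10), the gene deleted, was at 550, 463, 496 and 535 CPM in wild-type libraries 1 to 4 and at 120, 57.1, 84.2, 113 and 116 CPM in Ldb1-KO libraries 1 to 5. The groups did not overlap, and each Ldb1-KO library kept 11.2% to 23.5% of the wild-type mean (19.2% on average). The log2 fold was -2.38 (SE 0.35, adjusted p = 4.46e-05). Lmo2 (chr2:103957986-103981878) was at 0.410, 0.203, 0.297 and 0.179 CPM in the wild-type libraries, while the Ldb1-KO libraries had 43.0, 25.3, 31.9, 26.4 and 26.2 CPM. Its mean of 30.5 CPM was close to the 32.6 CPM of Lmo2tg, with a log2 fold of -0.09 between those groups (adjusted p = 0.825) and of 6.82 against wild type (SE 0.34, adjusted p = 4.35e-14). Counts per gene do not separate transgene from endogenous transcripts, and residual Ldb1 reads in cells that escaped deletion and reads from a partly deleted transcript cannot be told apart here.

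Of 20 listed members of the complex and its partners 19 were tested, 3 were higher (Lmo2, Lyl1 and Gata2) and Ldb1 was lower, against 6.98% and 2.58% of all genes. With the 9 libraries fitted alone 7 were called. Lmo2 and Ldb1 were altered by the design, and the list's median log2 fold was 0.12 against -0.01 over all genes. Lyl1 (chr8:84701457-84704715), the bHLH partner, was at 5.96, 5.07, 6.13 and 7.52 CPM in wild type and in Ldb1-KO at 54.1, 18, 26.6, 51.3 and 34.4 CPM. Every Ldb1-KO library was thus above every wild-type library, though below 3 of the 5 Lmo2tg libraries, which ran from 36.4 to 101 CPM. The log2 fold was 2.58 against wild type (SE 0.59, adjusted p = 0.00506) and -0.98 against Lmo2tg (adjusted p = 0.212). Tal1, the related bHLH factor, was at 1.26 ± 0.405 CPM (SD) in wild type, 0.217 in Lmo2tg and 1.59 ± 0.158 in Ldb1-KO, with a log2 fold of 0.33 against wild type (adjusted p = 0.76). Gata2 was called on few reads, 10 counts in the wild-type libraries together and 111 in Ldb1-KO, with libraries that overlapped (log2 fold 3.86, SE 0.97, adjusted p = 0.011). LYL1 and TAL1 act in the same position of the complex, and of the pair only Lyl1 passed the test. The difference between the pair's changes was not tested.

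Of 30 listed stem and progenitor regulators 24 were tested, and Hhex and Angpt1 were higher and none lower, against 6.98% and 2.58% of all genes. The median log2 fold of the list was 0.60. Without any 1 of the 4 wild-type libraries, or without Ldb1-KO library 1, 1 gene of the list was called, while 12 were with the 9 libraries fitted alone and 5 by DESeq2 or with the replicate number as a block. Hhex (chr19:37434810-37440731), a homeobox factor of haematopoietic progenitors, was at 2.59, 3.33, 3.51 and 3.74 CPM in wild type, while Ldb1-KO had 46.3, 23.3, 40.3, 37.1 and 42.6 CPM. No library of either group came near the other, and the mean of 37.9 CPM lay between 3.29 CPM in wild type and 67.2 CPM in Lmo2tg. The log2 fold was 3.52 against wild type (SE 0.71, adjusted p = 0.00174) and -0.83 against Lmo2tg (adjusted p = 0.376). Angpt1, a secreted ligand of the TEK receptor, was at 43.6 ± 5.82 CPM in wild type, 128 in Lmo2tg and 147 ± 29 in Ldb1-KO (log2 fold 1.75, SE 0.50, adjusted p = 0.0254), and 12.5% of its sequence occurs in other genes. The call of Angpt1 ended without wild-type library 1, 2, 3 or 4 or Ldb1-KO library 1 (adjusted p 0.0508 to 0.0807).

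The windows around the starts of Hhex and Lyl1 are shown because both genes, known targets of the complex, were above wild type with Ldb1 deleted. Both are from RefSeq (GRCm38.p6, the assembly of mm10), 250 bases before to 50 after the start, on the plus strand, and capitals mark every match, searched on both strands, of GATA or of the CANNTG that bHLH dimers read.
Hhex, chr19:37434591-37434890: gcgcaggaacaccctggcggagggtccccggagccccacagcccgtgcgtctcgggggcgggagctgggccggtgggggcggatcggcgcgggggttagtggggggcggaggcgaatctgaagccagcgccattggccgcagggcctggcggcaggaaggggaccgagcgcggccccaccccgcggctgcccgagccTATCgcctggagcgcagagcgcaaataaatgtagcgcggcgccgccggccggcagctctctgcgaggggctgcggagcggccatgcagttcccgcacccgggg
Lyl1, chr8:84701207-84701506: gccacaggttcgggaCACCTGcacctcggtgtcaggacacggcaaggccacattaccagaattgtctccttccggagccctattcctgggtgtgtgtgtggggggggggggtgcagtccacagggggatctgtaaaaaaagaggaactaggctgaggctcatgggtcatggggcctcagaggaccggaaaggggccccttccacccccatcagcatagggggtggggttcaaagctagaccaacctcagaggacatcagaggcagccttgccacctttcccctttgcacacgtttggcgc
The Hhex window held no CANNTG and 1 GATA, which lies on the other strand and so is written TATC. In the Lyl1 window there was 1 CANNTG, the CACCTG near its start, and no GATA. Among 32851 such windows of all genes, 72.3% held CANNTG, 57.9% held GATA and 43.6% held both. Neither window held both, so no matches overlapped. A match is a description of letters, not a binding site, and sequence outside these windows was not searched.

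Other progenitor genes differed in how near wild type they lay. Hoxa7 was at 12.9, 14.3, 12.2 and 12.6 CPM in wild type, at 0 to 0.131 CPM in Lmo2tg and at 4.42, 11.1, 10.6, 10.8 and 4.39 CPM in Ldb1-KO. The Ldb1-KO libraries lay below every wild-type library and far above every Lmo2tg library. The log2 fold was -0.65 against wild type (SE 0.44, adjusted p = 0.362) and 7.49 against Lmo2tg (adjusted p = 7.24e-09). Hoxa9, its neighbour in the cluster, averaged 1.5 CPM in wild type, 0.0609 in Lmo2tg and 5.97 in Ldb1-KO (log2 fold against wild type 2.00, SE 0.72, adjusted p = 0.0831). Cd34, a surface marker of progenitors, was at 2.68 to 3.51 CPM in wild type, 0.0527 to 1.4 in Lmo2tg and 6.83 to 10.3 in Ldb1-KO. Its 3 groups did not overlap, but the log2 fold of 1.58 did not pass the test (SE 0.74, adjusted p = 0.182). Kit, the receptor of stem cell factor and a DN2 marker, averaged 80.8 CPM in wild type and 133 in Ldb1-KO (log2 fold 0.72, adjusted p = 0.136), and Nfe2, a leucine zipper factor, had 37.9 and 102 CPM (log2 fold 1.44, adjusted p = 0.179). Cd34, Kit, Nfe2 and Hoxa9 were called when the 9 compared libraries were fitted alone (adjusted p = 5.73e-05, 0.00301, 0.00151 and 0.00537).

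Of 20 factors of T-lineage commitment tested, Ikzf3 and Zfp36l2 were higher and Gfi1 lower, against 6.98% and 2.58% of all genes, with a median log2 fold of 0.25. The count was 8 with the 9 libraries fitted alone and 5 by DESeq2 or with the replicate number as a block. Zfp36l2, an RNA-binding protein, was at 500, 462, 465 and 479 CPM in wild type, against 703, 690, 586, 803 and 718 CPM in Ldb1-KO (log2 fold 0.56, SE 0.13, adjusted p = 0.00522). Gfi1, a repressor, was at 195, 190, 186 and 194 CPM in wild type and in Ldb1-KO at 154, 132, 126, 139 and 148 CPM (log2 fold -0.45, SE 0.09, adjusted p = 0.00196). In neither gene did the groups overlap, and Gfi1 averaged 201 CPM in Lmo2tg, from which Ldb1-KO differed by a log2 fold of -0.53 (adjusted p = 9.46e-05). Ikzf3, an Ikaros-family factor, averaged 16.6 CPM in wild type and 38.8 in Ldb1-KO (log2 fold 1.22, adjusted p = 0.0223). That call ended without wild-type library 2, 3 or 4 or Ldb1-KO library 2 (adjusted p 0.0552 to 0.0671). Bcl11b, the zinc-finger factor that seals T-lineage commitment, was at 674 ± 60.4 CPM in wild type and 624 ± 46.5 in Ldb1-KO, with a log2 fold of -0.11 (SE 0.11, adjusted p = 0.549).

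Of 25 genes of the pre-T-cell receptor and its machinery tested, 7 were lower (Rag1, Dntt, Ptcra, Cd3d, Cd3g, Lck and Syk) and 5 higher (Cd2, Cd5, Cd6, Sh2d1a and Zap70), against 2.58% and 6.98% of all genes, with a median log2 fold of -0.10. Without wild-type library 1 the falls were 4, and without wild-type library 3 or 4 the count of both directions was 8. Rag1 (chr2:101638282-101649501), the recombinase that cuts antigen-receptor genes, was at 600, 738, 795 and 837 CPM in wild type, while Ldb1-KO had 209, 367, 312, 248 and 283 CPM. No Ldb1-KO library reached the lowest wild-type one, and the mean of 284 CPM was near the 310 CPM of Lmo2tg (log2 fold against wild type -1.39, SE 0.34, adjusted p = 0.00965). Dntt, which adds bases at the joints RAG makes, averaged 2670 CPM in wild type and 1919 in Ldb1-KO (log2 fold -0.48, SE 0.12, adjusted p = 0.00958). Cd3g, a chain of the CD3 signalling complex, was at 1320, 1372, 1438 and 1228 CPM in wild type, against 732, 1058, 826, 827 and 867 CPM in Ldb1-KO. Its Ldb1-KO values lay between those of wild type and Lmo2tg (426 to 592 CPM), with a log2 fold of -0.64 from wild type (SE 0.12, adjusted p = 0.000583) and 0.81 from Lmo2tg (adjusted p = 6.92e-06).

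Ptcra, the invariant chain of the pre-T-cell receptor, averaged 177 CPM in wild type, 31.7 in Lmo2tg and 96.1 in Ldb1-KO, where libraries ran from 53.9 to 136 CPM. Its log2 fold of -0.88 passed the test (SE 0.28, adjusted p = 0.043), but not without any 1 of the 4 wild-type libraries or of Ldb1-KO libraries 1, 3 and 5 (adjusted p 0.0668 to 0.121). Syk and Zap70 are related kinases that act on the same receptor, and they moved oppositely. Syk, the one used early, was at 133, 128, 116 and 122 CPM in wild type and in Ldb1-KO at 89.8, 93.9, 80.4, 75.4 and 85.1 CPM (log2 fold -0.55, SE 0.11, adjusted p = 0.00232). Zap70, which replaces it later, averaged 61.7 CPM in wild type and 96.0 in Ldb1-KO, with libraries that overlapped (log2 fold 0.64, SE 0.17, adjusted p = 0.0197). The Zap70 call ended without wild-type library 2, 3 or 4 or Ldb1-KO library 4 (adjusted p 0.0603 to 0.0774). For the kinase Lck, 1616 CPM in wild type and 1319 in Ldb1-KO (log2 fold -0.29, adjusted p = 0.0419), the call ended without any 1 of the 4 wild-type libraries or of Ldb1-KO libraries 1 to 4 (adjusted p 0.0511 to 0.135). Without wild-type library 1 the call of Cd3d ended as well (adjusted p = 0.0589).

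Among the rises of that list, Cd2, an adhesion and costimulatory receptor, was at 2.33, 0.912, 1.00 and 0.751 CPM in wild type, while Ldb1-KO had 13.2, 12.2, 12.1, 15.9 and 12.1 CPM. All 5 Ldb1-KO libraries lay above wild type and below the lowest Lmo2tg library (23.6 CPM), with a log2 fold of 3.41 from wild type (SE 0.46, adjusted p = 1.27e-05) and -2 from Lmo2tg (adjusted p = 0.000472). Cd5 and Cd6 are neighbouring genes for scavenger-receptor proteins that dampen T-cell-receptor signals. Cd6 averaged 39.9 CPM in wild type and 96.9 in Ldb1-KO (log2 fold 1.28, SE 0.21, adjusted p = 0.000137), and Cd5 18.2 and 43.9 CPM (log2 fold 1.27, SE 0.33, adjusted p = 0.0145). The Cd5 call ended without wild-type library 3 or 4 (adjusted p 0.0526 to 0.0558). Sh2d1a, the adaptor SAP, averaged 56.7 CPM in wild type and 106 in Ldb1-KO (log2 fold 0.90, SE 0.12, adjusted p = 9.59e-06), a value made uncertain by the 24.2% of its sequence that occurs in other genes.

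NOTCH1 and NOTCH3 are the receptors whose signal commits and sustains early T cells. Of 14 genes tested in that pathway, Notch3 was lower and Trib2, Heyl, Hey1 and Rbpj were higher, against 2.58% and 6.98% of all genes. The median log2 fold of the list was 0.09. Notch3 (chr17:32120820-32166852) was at 867, 824, 818 and 930 CPM in wild type, against 387, 552, 330, 607 and 491 CPM in Ldb1-KO, with no overlap (log2 fold -0.86, SE 0.20, adjusted p = 0.00497). Notch1 averaged 2101 CPM in wild type and 1622 in Ldb1-KO, where library 4 stood among the wild-type values (log2 fold -0.37, SE 0.21, adjusted p = 0.271). Trib2, a pseudokinase and a Notch target, was at 12.1, 14.8, 14 and 15.2 CPM in wild type and in Ldb1-KO at 45.2, 28.7, 44.2, 44.8 and 51.0 CPM. Its mean of 42.8 CPM lay between wild type and the 90.8 CPM of Lmo2tg, and both differences passed the test (log2 fold 1.61, SE 0.23, adjusted p = 2.31e-05 from wild type, and -1.09, adjusted p = 0.000427 from Lmo2tg). Rbpj, the DNA-binding partner of the Notch receptors, averaged 72.8 and 119 CPM (log2 fold 0.71, SE 0.12, adjusted p = 0.000144). The repressors Heyl and Hey1, which Notch switches on, averaged 3.96 and 1.11 CPM in wild type, against 8.23 and 4.05 CPM in Ldb1-KO (log2 fold 1.05 and 1.87, adjusted p = 0.00888 and 0.0186). For Hey1 the libraries overlapped, and the call ended without wild-type library 1, 2 or 4 (adjusted p 0.0531 to 0.0766).

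Several inhibitors of the cell cycle rose. Of 17 Cdk inhibitors and antiproliferative genes tested, 9 (Btg3, Tob1, Cdkn1b, Cdkn2a, Cdkn2b, Cdkn2d, Rb1, Gadd45a and Gadd45b) were higher and none lower, against 6.98% and 2.58% of all genes, with a median log2 fold of 0.77. Without wild-type library 1 or 4 the count was 5. With p-values adjusted over only the genes that share at most 10% of their sequence with others, 6 of the 9 were called. Cdkn1b, the gene of the inhibitor p27, was at 56.5, 66.2, 57.7 and 55.1 CPM in wild type, while Ldb1-KO had 121, 108, 108, 97.4 and 126 CPM, with no overlap (log2 fold 0.93, SE 0.15, adjusted p = 0.000148). Tob1, an antiproliferative protein, averaged 9.90 CPM in wild type and 26.0 in Ldb1-KO (log2 fold 1.39, SE 0.20, adjusted p = 3.61e-05). Cdkn2a, which encodes INK4A and ARF, was at 0.0228 to 0.0715 CPM in wild type, against 1.33, 0.141, 5.61, 4.30 and 0.549 CPM in Ldb1-KO. Every Ldb1-KO library was above wild type but their values spread widely (log2 fold 5.58, SE 1.04, adjusted p = 0.000753). Cdkn1a, the gene of p21, went the other way without passing the test, with 53.5, 48.7, 66.6 and 66.6 CPM in wild type, against 17.7, 33.3, 27.0, 35.9 and 38.8 CPM in Ldb1-KO (log2 fold -0.95, SE 0.38, adjusted p = 0.114). Its Lmo2tg mean was 2.77 CPM, and Ldb1-KO stood 3.47 above that on the log2 scale (adjusted p = 6.01e-07). The rise of Btg3 from 0.356 to 6.48 CPM is uncertain because 25.0% of its sequence occurs in other genes.

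Of 36 cell-cycle genes tested, Ccnb1 and Bub1, which drive and guard mitosis, were called higher and none lower, against 6.98% and 2.58% of all genes. Ccnb1 averaged 49.4 CPM in wild type and 92.7 in Ldb1-KO (log2 fold 0.91, adjusted p = 0.0426), with 14.8% of its sequence in other genes, and Bub1 47.1 and 79.2 CPM (log2 fold 0.75, adjusted p = 0.0491). No call was left in that list without any 1 of the 4 wild-type libraries or without Ldb1-KO library 2 or 3, and 1 was left without Ldb1-KO library 4 or 5, while the 9 libraries fitted alone gave 12. Neither gene stayed called when a trend with GC content was taken out (adjusted p = 0.113 and 0.197). Mki67, a marker of cycling cells, averaged 572 CPM in wild type and 682 in Ldb1-KO (log2 fold 0.25, SE 0.21, adjusted p = 0.474). Of 15 Bcl2-family genes tested, Pmaip1, the death-promoting NOXA gene, was called higher, against 6.98% of all genes. It was at 3.12 and 8.28 CPM (log2 fold 1.41, adjusted p = 0.0202). The Pmaip1 call ended without wild-type library 1, 2 or 4 or Ldb1-KO library 5 (adjusted p 0.0557 to 0.0818). Bcl2, its survival-promoting relative, averaged 169 CPM in wild type, 93.3 in Lmo2tg and 203 in Ldb1-KO (log2 fold from wild type 0.27, SE 0.24, adjusted p = 0.511).

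**Figure D2:**
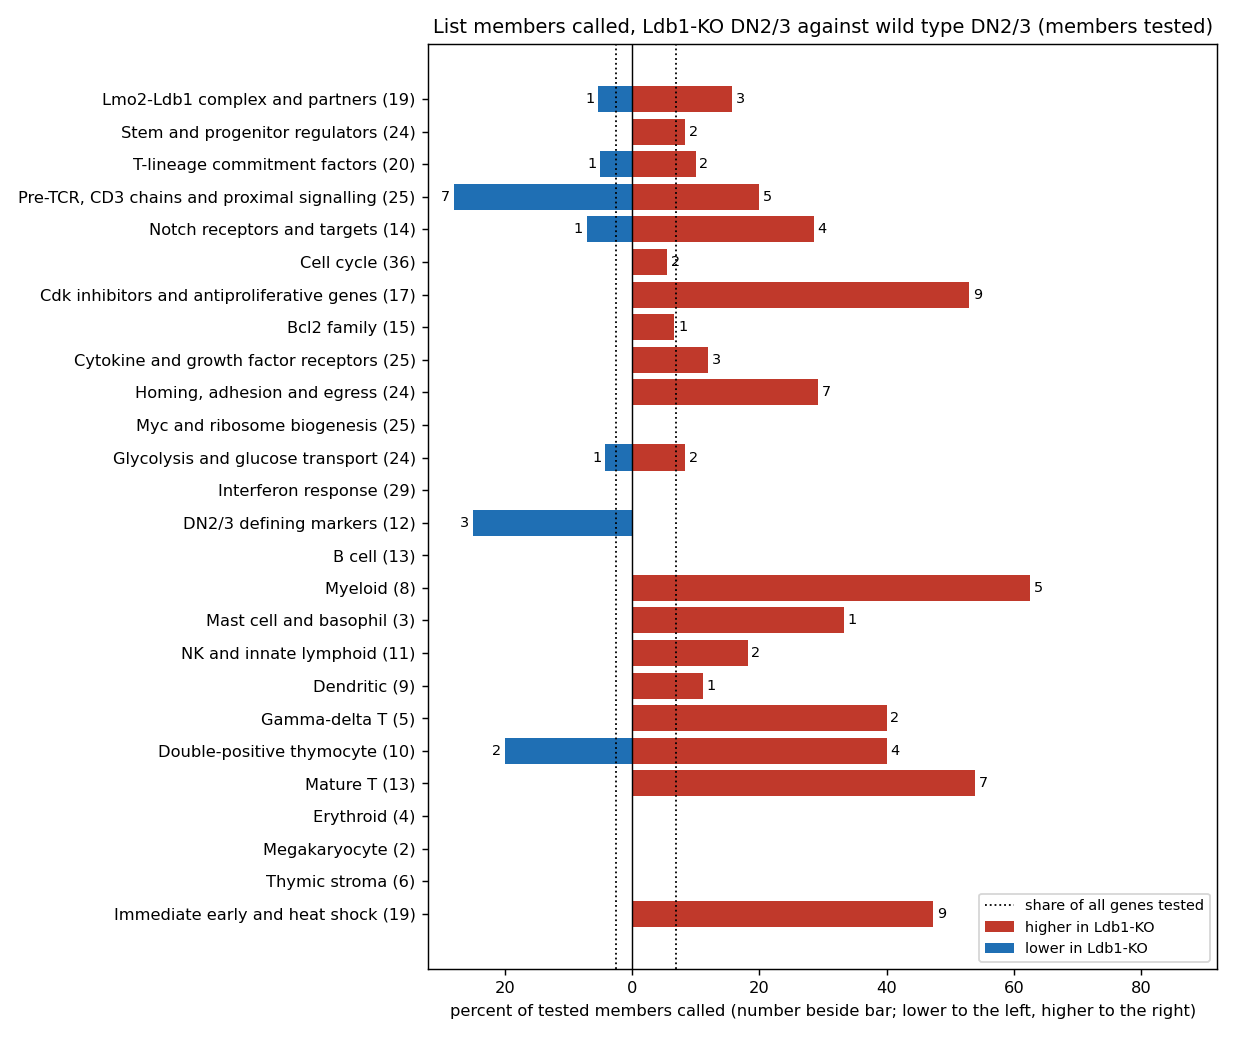
Percent of the tested members of each gene list called higher (to one side) or lower (to the other) in Ldb1-KO against wild-type DN2/3, for lists of pathways and of cell type markers; dotted lines are the shares of all genes, 6.98% higher and 2.58% lower. Cdk inhibitors (9 of 17), mature T markers (7 of 13) and immediate early genes (9 of 19) had only rises among their calls, and the pre-T-cell-receptor list had 7 falls and 5 rises in 25.

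Of 24 genes of homing, adhesion and egress tested, 7 (Itgb7, Cd69, Klf2, S1pr1, Ly6a, Ccr7 and Ccr4) rose and none fell, against 6.98% and 2.58% of all genes, with a median log2 fold of 0.39. Klf2 (chr8:72319033-72321656), a factor of quiescent T cells that switches on S1pr1, was at 9.80, 8.94, 18.1 and 5.56 CPM in wild type, while Ldb1-KO had 76.5, 28.7, 46.0, 56.1 and 69.0 CPM (log2 fold 2.38, SE 0.38, adjusted p = 0.000114). S1pr1, the receptor that leads thymocytes out to the blood, was at 0.161 to 0.203 CPM in wild type, against 6.98, 2.19, 3.19, 6.25 and 7.20 CPM in Ldb1-KO (log2 fold 4.80, SE 0.82, adjusted p = 0.000254). Both genes stood apart from wild type in every Ldb1-KO library, and neither differed from Lmo2tg by the test (adjusted p = 0.606 and 0.327). Itgb7, an integrin chain, averaged 9.13 CPM in wild type and 104 in Ldb1-KO (log2 fold 3.50, SE 0.51, adjusted p = 3.47e-05), and Cd69, which holds cells in the tissue, 9.53 and 49.0 CPM (log2 fold 2.36, SE 0.36, adjusted p = 7.75e-05). Ly6a, the stem-cell antigen Sca-1, was at 15.2, 14.5, 15.2 and 13.1 CPM in wild type, 5.11 to 12.1 CPM in Lmo2tg and in Ldb1-KO at 39.0, 39.5, 73.4, 33.6 and 32.2 CPM. It was above both other groups in every Ldb1-KO library, with a log2 fold of 1.59 from wild type (SE 0.40, adjusted p = 0.0114) and 2.52 from Lmo2tg (adjusted p = 3.17e-05).

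Markers of mature T cells moved with these genes. Of 13 such markers tested, 7 (Cd69, Klf2, S1pr1, Il2rb, Ly6c1, Ly6c2 and Ccr7) were higher and none lower, against 6.98% and 2.58% of all genes. The median log2 fold of the list was 1.69, and 4 of the 7 are in the homing list as well. The count was 4 without wild-type library 3 or 4 or Ldb1-KO library 3. The 13 markers summed to 706 to 878 CPM in wild type, 1063 to 1482 in Lmo2tg and 939 to 1512 in Ldb1-KO, and none was without counts in all 9 libraries. Their part in the rises of homing genes was not tested. In bulk samples more cells of a type and more RNA per cell cannot be told apart. Of 25 receptors for cytokines and growth factors tested, Il2rb, Csf1r and Csf3r were higher and none lower, against the same shares of all genes. With the 9 libraries fitted alone 11 were called. Il2rb, the interleukin-2 receptor chain of mature and innate lymphocytes, averaged 0.500 CPM in wild type and 2.84 in Ldb1-KO (log2 fold 2.52, SE 0.64, adjusted p = 0.0126). Neither Il2ra, a marker of the stage, nor Il7r passed the test. Il2ra, the CD25 gene, averaged 1512 CPM in wild type and 1396 in Ldb1-KO (log2 fold -0.12, adjusted p = 0.834), and Il7r 137 and 98.4 CPM (log2 fold -0.48, adjusted p = 0.411).

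Immediate early genes, which cells switch on within minutes of a stimulus or of handling, were higher in Ldb1-KO. Of 19 immediate early and heat shock genes tested 9 were higher (Nr4a2, Zfp36, Fos, Ier3, Dnajb1, Dusp1, Nr4a1, Ier2 and Egr1) and none lower, against 6.98% and 2.58% of all genes. The median log2 fold of the list was 0.85, and the count was 5 without wild-type library 4. Fos was at 91.9, 109, 234 and 73.3 CPM in wild type, while Ldb1-KO had 403, 283, 262, 317 and 659 CPM (log2 fold 1.60, SE 0.35, adjusted p = 0.00385). Wild-type library 3 was the highest of its group and Ldb1-KO library 3 the lowest of the other, and the groups stayed apart. Nr4a2, an orphan nuclear receptor, averaged 4.51 CPM in wild type and 27.4 in Ldb1-KO (log2 fold 2.60, SE 0.46, adjusted p = 0.000408). Nr4a1, which reports T-cell-receptor signals, averaged 28.8 and 117 CPM (log2 fold 2.02, SE 0.53, adjusted p = 0.0141), and its call ended without wild-type library 2 or 4 (adjusted p 0.0523 to 0.059). The whole list summed to 3518 to 5195 CPM in wild type, 4205 to 6719 in Lmo2tg and 5226 to 11865 in Ldb1-KO. The part of this list in the other rises was not tested.

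No gene of 25 in the Myc and ribosome biogenesis list was called by edgeR, 2 were lower and none higher at an unadjusted p below 0.05, and DESeq2 called 1 lower. Myc itself, a transcription factor of cell growth, averaged 364 CPM in wild type and 251 in Ldb1-KO without overlap (log2 fold -0.54, SE 0.19, adjusted p = 0.071). It was called when the 9 libraries were fitted alone (adjusted p = 0.00502). The nucleolar protein gene Npm1 was at 1427 ± 129 CPM in wild type and 1533 ± 213 in Ldb1-KO, and shares 12.6% of its sequence with others. In the interferon list of 29 genes edgeR and DESeq2 called none, and 2 were higher at an unadjusted p below 0.05, while the fit of the 9 libraries alone called 5 higher. Of 24 genes of glycolysis and glucose transport, Pgk1 and Slc2a3 were higher and Pdk1 lower, against 6.98% and 2.58% of all genes. With the 9 libraries fitted alone 8 were called. Slc2a3, a glucose transporter, had a log2 fold of 0.46 (SE 0.15, adjusted p = 0.0483), and its call ended without any 1 library other than Ldb1-KO library 1 (adjusted p 0.0534 to 0.127). Pdk1, the kinase that holds pyruvate back from mitochondria, averaged 180 CPM in wild type and 128 in Ldb1-KO (log2 fold -0.49, SE 0.13, adjusted p = 0.0166), and its call ended without wild-type library 2 (adjusted p = 0.0762). Pgk1 (log2 fold 0.69, SE 0.15, adjusted p = 0.00406) shares 51.6% of its sequence with other genes.

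The largest fitted rises were mostly of genes that share sequence with others. Sharing was measured as the percent of a gene's 101-base stretches, the length of the reads, that occur in transcripts of another annotated gene. Some gene classes were left out of the ranking by size: predicted or unnamed genes, T-cell receptor and immunoglobulin segments, histone cluster genes and ribosomal protein pseudogenes. Among the other called genes with at least 5 CPM and no overlap between groups, the 10 largest rises were Srp54b, Mir684-1, Entpd4, Lmo2, Morf4l1-ps1, Cd8a, Tenm4, Srp54a, Adam19 and Gstp2. Srp54b, 1 of the near-identical copies of the signal recognition particle gene, was at 0.0146, 0.372, 0.0343 and 0.00894 CPM in wild type and 33.3 to 36.3 CPM in Ldb1-KO. In Lmo2tg it was at 29.2 to 36.7 CPM, so both transgenic groups stood at a like level, and 87.5% of its sequence was shared. Shared percentages were 100% for Entpd4, 86.9% for Morf4l1-ps1, 66.5% for Srp54a and 46.8% for Gstp2, while Mir684-1 had no value. With those classes kept in, 13 of the 20 largest rises shared over 10% and 1 had no value, while 2 of the 20 largest falls shared over 10%.

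The share called differed with sharing, and not the same way in both comparisons. Among 352 genes sharing over 50%, 84 (23.9%) were called against wild type, 80 of them (22.7%) higher, while 36 (10.2%) were called between Ldb1-KO and Lmo2tg. Among 8450 genes sharing none, 728 (8.62%) and 1493 (17.7%) were called. Fold changes of genes that share sequence are therefore uncertain here, and the library series, which differs between wild type and both transgenic groups, cannot be told apart from genotype. The p-values of the same fit were also adjusted over only the 12095 genes sharing at most 10%. Of these 987 were called, 687 higher and 300 lower, and 436 of them differed over 2-fold.

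**Figure D3:**
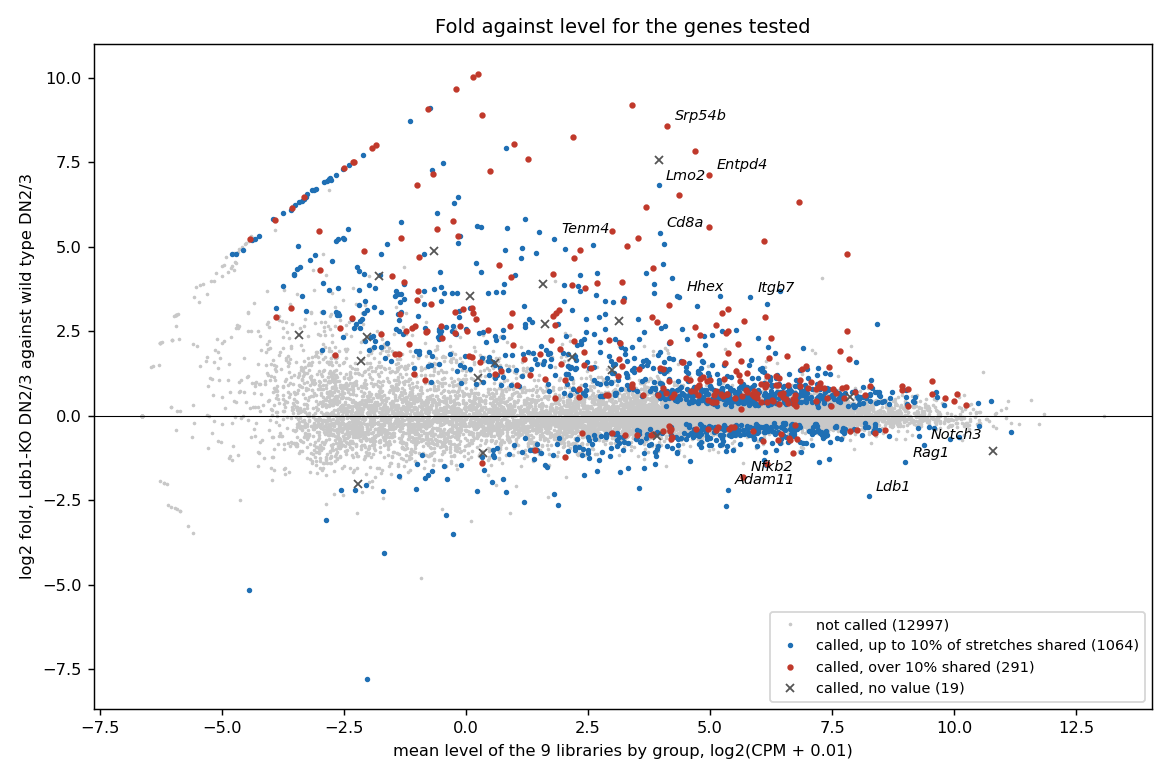
Fitted log2 fold of Ldb1-KO against wild-type DN2/3 for every gene tested, against its level as log2 of CPM plus 0.01, with called genes coloured by how much sequence they share with other genes. Of the called genes 1064 shared at most 10%, 291 more than that and 19 had no value, and 13 of the 20 largest rises with at least 5 CPM and no overlap are of the second kind.

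Genes with little shared sequence (at most 10%) are given next, a choice made after values were seen. Cd8a (chr6:71373427-71379173), the CD8 alpha chain that marks later thymocytes, was at 1.26, 0.473, 0.605 and 0.536 CPM in wild type, against 23.6, 27.9, 27.8, 38.0 and 35.1 CPM in Ldb1-KO. Those values overlapped with the 25.6 to 92.7 CPM of Lmo2tg, and the log2 fold from wild type was 5.42 (SE 0.59, adjusted p = 3.41e-07). Its partner Cd8b1 was at 2.26 to 4.13 CPM in wild type and 18.7 to 24.6 CPM in Ldb1-KO (log2 fold 2.85, SE 0.38, adjusted p = 9.36e-06). Cd4 averaged 0.980 and 6.39 CPM (log2 fold 2.71, SE 0.88, adjusted p = 0.0493), and its call ended without any 1 of the 9 libraries (adjusted p 0.0506 to 0.124). Tenm4, a teneurin adhesion protein, was at 0.0676 to 0.224 CPM in wild type, 22.9 to 38.4 in Lmo2tg and 1.74 to 11.9 in Ldb1-KO (log2 fold 5.24, SE 0.90, adjusted p = 0.000268). Ldb1-KO was between the other groups there, with a log2 fold of -2.13 from Lmo2tg (adjusted p = 0.029). Adam19, a membrane metalloprotease, varied most between libraries, with 3.18, 0.135, 0.0685 and 0.483 CPM in wild type, against 6.12, 4.01, 37.6, 85.6 and 26.8 CPM in Ldb1-KO (log2 fold 5.07, SE 1.09, adjusted p = 0.00308).

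P2rx7, an ATP-gated channel, was at 1.73, 2.48, 2.60 and 1.61 CPM in wild type, while Ldb1-KO had 44.6, 11.2, 43.8, 47.5 and 28.3 CPM, with no overlap (log2 fold 4.06, SE 0.56, adjusted p = 1.78e-05). Slc7a8, an amino acid transporter, averaged 1.29 CPM in wild type, 123 in Lmo2tg and 24.4 in Ldb1-KO (log2 fold from wild type 4.23, SE 0.97, adjusted p = 0.00541). Arsi, a sulfatase gene, averaged 3.15, 91.8 and 36.8 CPM in the same order (log2 fold 3.54, SE 0.53, adjusted p = 5.53e-05). Both were between wild type and Lmo2tg and passed the test against each (adjusted p against Lmo2tg 0.0438 and 0.0408). H2-Q1, a class Ib histocompatibility gene, averaged 0.266 CPM in wild type and 7.89 in Ldb1-KO (log2 fold 4.92, SE 0.33, adjusted p = 1.85e-11). It belongs to a family of similar genes, so that its reads may be split among them although its own share was 7.9%. Tspan32, a tetraspanin, averaged 0.971 and 11.6 CPM (log2 fold 3.58, SE 0.46, adjusted p = 4.15e-06). Clec4e, a C-type lectin of myeloid cells, averaged 1.81 and 26.8 CPM (log2 fold 3.88, SE 0.87, adjusted p = 0.00444). Cldn2, a claudin of epithelia, averaged 0.533 and 9.54 CPM, with a log2 fold of 4.16 (SE 1.22, adjusted p = 0.0321). That call ended without wild-type library 1, 2, 3 or 4 or Ldb1-KO library 1, which alone was at 26.0 CPM (adjusted p 0.0807 to 0.094).

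Several falls were of genes lower still in Lmo2tg. Adam11, a membrane disintegrin, was at 54.1, 59.0, 77.2 and 78.7 CPM in wild type, 0.0549 to 1.82 CPM in Lmo2tg, against 8.79, 17.5, 11.8, 20.7 and 14.6 CPM in Ldb1-KO (log2 fold from wild type -2.20, SE 0.55, adjusted p = 0.0114). The 3 groups did not overlap, and Ldb1-KO stood 4.88 above Lmo2tg on the log2 scale (adjusted p = 3.18e-06). Lrp1, a lipoprotein receptor, averaged 104, 4.61 and 37.9 CPM in wild type, Lmo2tg and Ldb1-KO (log2 fold from wild type -1.46, SE 0.27, adjusted p = 0.000623). Rab44, a large Rab GTPase, averaged 217, 13.9 and 84.1 CPM (log2 fold -1.36, SE 0.31, adjusted p = 0.00545). Tdrd5, a Tudor-domain protein, averaged 21.4, 2.16 and 7.93 CPM (log2 fold -1.43, SE 0.36, adjusted p = 0.0113), and Angptl7, a secreted protein, 5.78, 0.445 and 1.15 CPM (log2 fold -2.31, SE 0.50, adjusted p = 0.00343). Lrp1, Rab44 and Tdrd5 were above Lmo2tg by the test (log2 fold 3.03, 2.59 and 1.89) and Angptl7 was not (1.38, adjusted p = 0.0553). Gng7, a G-protein gamma subunit, and Cd200, an inhibitory surface ligand, were at like levels in the transgenic groups, with 9.68, 3.60 and 3.08 CPM for Gng7 (log2 fold from wild type -1.65, SE 0.28, adjusted p = 0.000233) and 8.14, 3.46 and 2.43 CPM for Cd200 (-1.74, SE 0.43, adjusted p = 0.0101).

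Weaker calls among the falls were Alpl, Sh2b2 and Prss30, each lost without 1 of several libraries. Alpl, a phosphatase, averaged 6.34 CPM in wild type and 1.02 in Ldb1-KO (log2 fold -2.65, adjusted p = 0.0277, or 0.0537 to 0.08 without wild-type library 1, 3 or 4 or Ldb1-KO library 1, 3 or 5). Sh2b2, an adaptor, averaged 18.6 and 6.29 CPM (log2 fold -1.56, adjusted p = 0.0484, or 0.0786 to 0.155 without any 1 wild-type library or Ldb1-KO library 1, 3 or 5). Prss30, a protease, averaged 14.9 and 5.10 CPM (log2 fold -1.55, adjusted p = 0.0269, or 0.0526 to 0.0836 without any 1 wild-type library or Ldb1-KO library 1, 3, 4 or 5).

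Several of the falls lie beside Ldb1 itself. Of 97 genes tested within 5 Mb of Ldb1 and other than it, 25 (25.8%) were called against 9.56% of all genes, 7 higher and 18 lower. The count was 16 (11 lower) without Ldb1-KO library 3, and 17 to 22 without any other 1 library. Within 1 Mb 32 were tested, and 10 (31.2%) were called, every one of them lower: Btrc, Pitx3, Gbf1, Nfkb2, Psd, Cuedc2, Tmem180, 2310034G01Rik, Arl3 and Sfxn2. Tmem180 (chr19:46341121-46375252), a membrane protein gene that RefSeq now lists as Mfsd13a, was at 80.4, 66.7, 64.7 and 63.8 CPM in wild type and in Ldb1-KO at 12.1, 12.5, 7.07, 10.2 and 11.8 CPM. Its log2 fold of -2.68 (SE 0.78, adjusted p = 0.0276) was the largest fall among called genes with at least 5 CPM and no overlap. Predicted genes and the other classes named above were left out of that ranking. The call ended without any 1 wild-type library or Ldb1-KO library 1, 3 or 5 (adjusted p 0.0509 to 0.0767), and the Lmo2tg libraries were at 1.70, 1.11, 36.6, 32.6 and 38.7 CPM. Nfkb2 (chr19:46304320-46312385), a subunit gene of NF-kappaB, was at 94.1, 77.1, 75.3 and 73.2 CPM in wild type, while Ldb1-KO had 23.7, 21.8, 16.8, 27.4 and 24.0 CPM (log2 fold -1.81, SE 0.26, adjusted p = 2.52e-05). Psd (chr19:46312087-46327156), which overlaps its end, was at 24.0, 17.0, 17.3 and 17.6 CPM in wild type, against 4.02, 3.92, 2.33, 5.95 and 5.42 CPM in Ldb1-KO (log2 fold -2.13, SE 0.32, adjusted p = 5.53e-05). With the strand setting of the counting unknown, reads where Nfkb2 and Psd overlap may be counted for either, and 12.3% of the sequence of Nfkb2 occurs in other genes. The Lmo2tg libraries ran from 20.6 to 54.0 CPM for Nfkb2 and from 4.30 to 15.5 CPM for Psd, and in both genes libraries 1 and 2 of that group were the lowest and within the Ldb1-KO range.

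Arl3, a small GTPase, averaged 20.6 CPM in wild type, 15.5 in Lmo2tg and 9.06 in Ldb1-KO (log2 fold from wild type -1.19, SE 0.25, adjusted p = 0.00262), and Sfxn2, a mitochondrial carrier, 34.4, 19.3 and 13.4 CPM (log2 fold -1.36, SE 0.20, adjusted p = 4.47e-05). Btrc, a ubiquitin ligase subunit at 0.668 Mb to the other side, averaged 48.5, 40.3 and 26.8 CPM (log2 fold -0.85, SE 0.22, adjusted p = 0.0142). In Lmo2tg both Arl3 and Btrc had their lowest values in libraries 1 and 2 (8.78 to 9.44 and 26.9 to 29 CPM), while the other 3 libraries were at 17.9 to 21.2 and 46.3 to 50.7 CPM. The Arf exchange factor Gbf1 moved least of the 10. It averaged 112 CPM in wild type and 85.9 in Ldb1-KO, a log2 fold of -0.39 (SE 0.11, adjusted p = 0.0195), and its call ended without wild-type library 4 or Ldb1-KO library 3 (adjusted p 0.0606 to 0.0671). Pitx3, a homeobox gene of the lens and midbrain, had no counts in Ldb1-KO and 0.268 to 0.717 CPM in wild type, and was at least 41.8-fold lower with a floor of 3 counts over the group. In Lmo2tg Pitx3 averaged 0.022 CPM, from which Ldb1-KO did not differ by the test (adjusted p = 0.188). Between Ldb1-KO and Lmo2tg, 8 of the same 32 genes (25%, against 16.1% of all genes) were called, 2 higher and 6 lower. In Lmo2tg against wild type, where Ldb1 is intact, 9 of the 32 (28.1%, against 29.5% of all genes) were called, 3 higher and 6 lower. Those 6 were Pitx3, Nfkb2, Psd, Cuedc2, 2310034G01Rik and Sfxn2, all of them called lower in Ldb1-KO as well. The sources used here do not give the strain behind the floxed allele, so effects of the deletion and of flanking sequence of another strain cannot be told apart. Around Lmo2, 3 of 37 genes within 5 Mb were called (8.11%, against 9.56% of all genes).

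**Figure D4:**
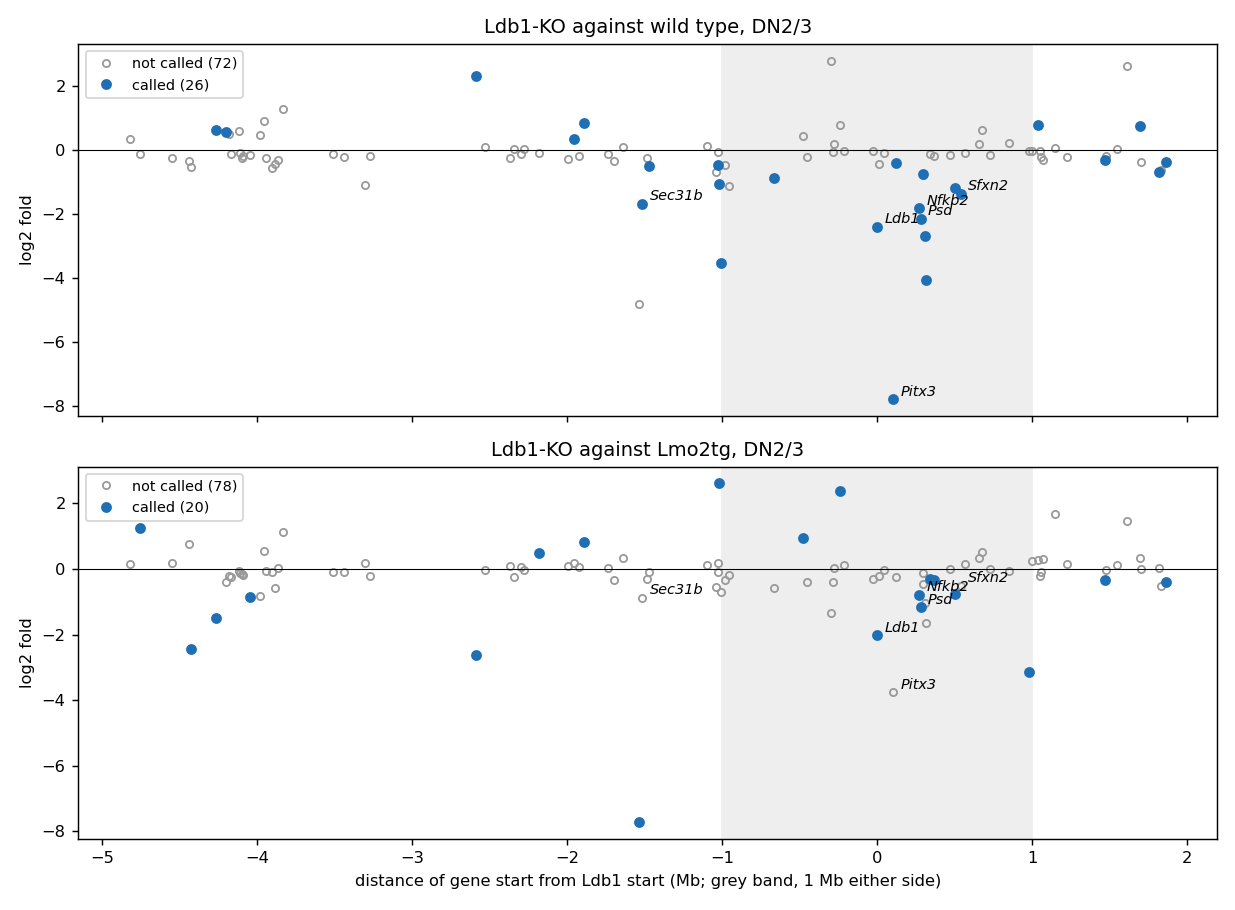
Log2 fold of genes against the distance of their start from that of Ldb1 in Mb, for Ldb1-KO against wild type and for Ldb1-KO against Lmo2tg at DN2/3, with the 1 Mb on either side shaded. In the first panel 26 of 98 genes, Ldb1 among them, were called and all called genes in the shaded band were lower; in the second 20 were called.

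Of 13 myeloid markers 8 passed the filter on low counts and 5 (Csf1r, Itgam, Cybb, Adgre1 and Fcgr3) were higher, against 6.98% of all genes. Of the 5, 3 were among genes with little shared sequence. Itgam shares 64.3% of its sequence and Csf1r 13.5%. The filter keeps a gene that is high enough in any 1 group. Csf1r, with 11 counts in wild type, and Cybb, with none, could pass only through transgenic groups. The share of the 8 that rose is therefore not like for like with 6.98%. The 13 summed to 18.3 to 24.6 CPM in wild type, 3.9 to 15.3 in Lmo2tg and 22.1 to 35.9 in Ldb1-KO. The most abundant, Lyz2, was at 14 to 21.2 CPM in wild type and 11 to 17.6 CPM in Ldb1-KO, and the list's calls fell to 1 to 3 without wild-type library 1 (2), 2 (3), 3 (1) or 4 (2) or Ldb1-KO library 2, 3 or 5 (2 each). Cybb, of the phagocyte oxidase, had no counts in wild type and was at least 22.8-fold higher in Ldb1-KO on a floor of 3 counts over the group, at a mean of only 0.209 CPM. Csf1r, the macrophage growth factor receptor, was at 0.0179 to 0.0676 CPM in wild type and 0.686 to 1.48 in Ldb1-KO (log2 fold 4.69, SE 1.05, adjusted p = 0.00449). Gzmb, a granzyme of cytotoxic and mast cells, was the mast-cell marker called, with 0.161 CPM in wild type, 0.654 in Lmo2tg and 4.17 in Ldb1-KO (log2 fold 4.65, SE 0.82, adjusted p = 0.000417). Cpa3, a mast-cell protease gene that early thymocytes also express, was at 60.2 to 106 CPM in wild type, 378 to 862 in Lmo2tg and 128 to 702 in Ldb1-KO. Every Ldb1-KO library was above wild type, but the log2 fold of 2.07 did not pass the test (SE 0.80, adjusted p = 0.104, or 0.00882 with the 9 libraries fitted alone). The 10 mast-cell markers summed to 60.8 to 106.5 CPM in wild type and 132.4 to 706.5 CPM in Ldb1-KO. The mast-cell genes Fcer1a, Mcpt4, Ms4a2 and Tpsb2 had no counts in any of the 9 libraries. The part of these cells in the calls above was not tested.

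Cd163l1 is a gene for a scavenger receptor of gamma-delta T cells. It was at 87.9, 106, 83.0 and 85.6 CPM in wild type, 34.5 to 203 CPM in Lmo2tg and in Ldb1-KO at 853, 201, 209, 1361 and 336 CPM. All Ldb1-KO libraries were above wild type, with libraries 1 and 4 highest (log2 fold 2.71, SE 0.78, adjusted p = 0.0268). The call ended without any 1 of the 4 wild-type libraries or without Ldb1-KO library 1 or 4 (adjusted p 0.0541 to 0.0824). Il17a had no counts, and the constant-region genes of the gamma and delta chains were not analysed here. Rora, of innate lymphoid cells, averaged 2.08 and 12.3 CPM (log2 fold 2.57, SE 0.58, adjusted p = 0.00471). It was called higher with Il1rl1 among 11 such markers, against 6.98% of all genes.

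Among double-positive thymocyte markers, Cd8a, Cd8b1 and Cd4 were higher while Rag1 and Arpp21 were lower. Among 9 dendritic-cell markers Xcr1 was higher, against 6.98% of all genes, and its call ended without wild-type library 1, 2 or 3. Of 12 DN2/3 markers Dntt, Rag1 and Ptcra were lower and none higher, against 2.58% and 6.98% of all genes. EdgeR called none of 13 B-cell, 4 erythroid, 2 megakaryocyte and 6 stromal markers tested; at an unadjusted p below 0.05, 2 B-cell and 1 erythroid markers were higher, and DESeq2 called 2 and 1 higher. The haemoglobin genes Hba-a1, Hba-a2, Hbb-b1, Hbb-bs and Hbb-bt and the platelet genes Pf4 and Ppbp had no counts in the 9 libraries.

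Calls also went with the GC content of transcripts. In 5 groups of genes ordered by GC content, the median log2 fold of Ldb1-KO against wild type went from 0.24 in the lowest group to -0.20 in the highest, with 359 rises and 9 falls called in the lowest and 117 and 123 in the highest. Against Lmo2tg the medians went from 0.16 to -0.17, and between Lmo2tg and wild type from 0.08 to -0.02. Taking the trend out of each library gave 1459 calls. Of the genes described it ended those of Lck (adjusted p = 0.139), Ptcra (0.0631), Slc2a3 (0.0644), Ccnb1, Bub1 and Sh2b2 (0.0682).

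The same genotypes were compared at DN4 with other libraries, 5 Ldb1-KO and 4 wild type. This comparison is not independent of that at DN2/3. Wild type again follows another name pattern than the transgenic libraries, and same-numbered libraries of the stages deviated together. Srp54b, most of whose sequence is shared, rose by a log2 fold of 8.58 at DN2/3 and of 8.65 at DN4. At DN4, 4680 genes (32.6%) were called. Of the 1374 genes called at DN2/3, 877 were called at DN4 as well, which is 63.8% of the DN2/3 calls and 18.7% of those at DN4, and 872 of them had the same direction. In Ldb1-KO against wild type at DN4 the log2 fold was 6.79 for Hhex, 4.91 for Lyl1, 2.30 for Klf2, 1.19 for Cdkn1b and 3.27 for Cd8a, all called. Of the 7 pre-T-cell-receptor genes that fell at DN2/3, Syk (-0.66, adjusted p = 0.000246) and Dntt (-0.30, adjusted p = 0.0478) were lower at DN4 as well. The others were not called there, with log2 folds of -0.44 for Rag1, -0.11 for Ptcra, 0.23 for Cd3d, 0.15 for Cd3g and 0.13 for Lck (adjusted p 0.113 to 0.79). Nor were Notch3 (0.14, adjusted p = 0.62), Nfkb2 (-0.19, adjusted p = 0.59) and Psd (-0.49, adjusted p = 0.24). Only a test of the difference between stages shows whether these differ. Run without pairing the libraries of the stages, it called 31 genes (0.216%), 5 with a higher and 26 with a lower value at DN2/3. Of these, 12 were called at DN2/3 and 19 were not.

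Same-numbered libraries of the stages deviated together within wild type and within Ldb1-KO, and this was not checked in Lmo2tg. The test was also run with genotype and number together as a replicate block, set for Lmo2tg too. That run called 2811 genes, 1343 higher and 1468 lower. Cd3g passed both (difference -0.79, SE 0.17, adjusted p = 0.0361, and 0.00187 with the block). Of the other falls of the list, Rag1 (-0.95, adjusted p = 0.372), Cd3d (-0.67, adjusted p = 0.0655) and Lck (-0.42, adjusted p = 0.154) passed with the block alone (adjusted p = 0.0163, 0.00277 and 0.0165). Ptcra (-0.77, adjusted p = 0.372), Dntt (-0.17, adjusted p = 0.639) and Syk (0.11, adjusted p = 0.78) passed neither (adjusted p with the block 0.0776, 0.322 and 0.575). Notch3 (-1, adjusted p = 0.112), Nfkb2 (-1.62, adjusted p = 0.0595) and Psd (-1.64, adjusted p = 0.108) passed with the block alone (adjusted p = 0.0135, 0.0138 and 0.00544). H2-Q1 rose more at DN2/3 (difference 3.05, SE 0.39, adjusted p = 0.000376), where wild type was at 0.266 CPM against 4.29 CPM at DN4. Alas2, the first enzyme of erythroid haem synthesis, rose at DN4 from 0.689 to 16.8 CPM and was at 0.779 and 1.22 CPM at DN2/3 (difference -3.96, SE 0.58, adjusted p = 0.00153). Cd200 was lower in Ldb1-KO at DN2/3 and higher at DN4, with 3.67 and 8.96 CPM there (difference -3.03, SE 0.62, adjusted p = 0.0339). Lmo2 rose by more at DN4, from 0.0778 to 45.4 CPM (difference -2.32, SE 0.50, adjusted p = 0.0418).

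Ube2l6, an ISG15-conjugating enzyme, and Pde2a, a phosphodiesterase, rose at DN4 (log2 fold 3.87 and 3.20) with log2 folds of 0.44 and 0.03 at DN2/3 (differences -3.43 and -3.17, adjusted p = 0.0248 and 0.0161). Pde2a shares 60.7% of its sequence with other genes. The Ube2l6 difference ended without wild-type DN2/3 library 2 or 3, Ldb1-KO DN2/3 library 4 or 5, wild-type DN4 library 1, 3 or 4 or Ldb1-KO DN4 library 5 (adjusted p 0.0508 to 0.0985), and that of Pde2a without wild-type DN4 library 1 or 3 (0.07 to 0.084).

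**Figure D5:**
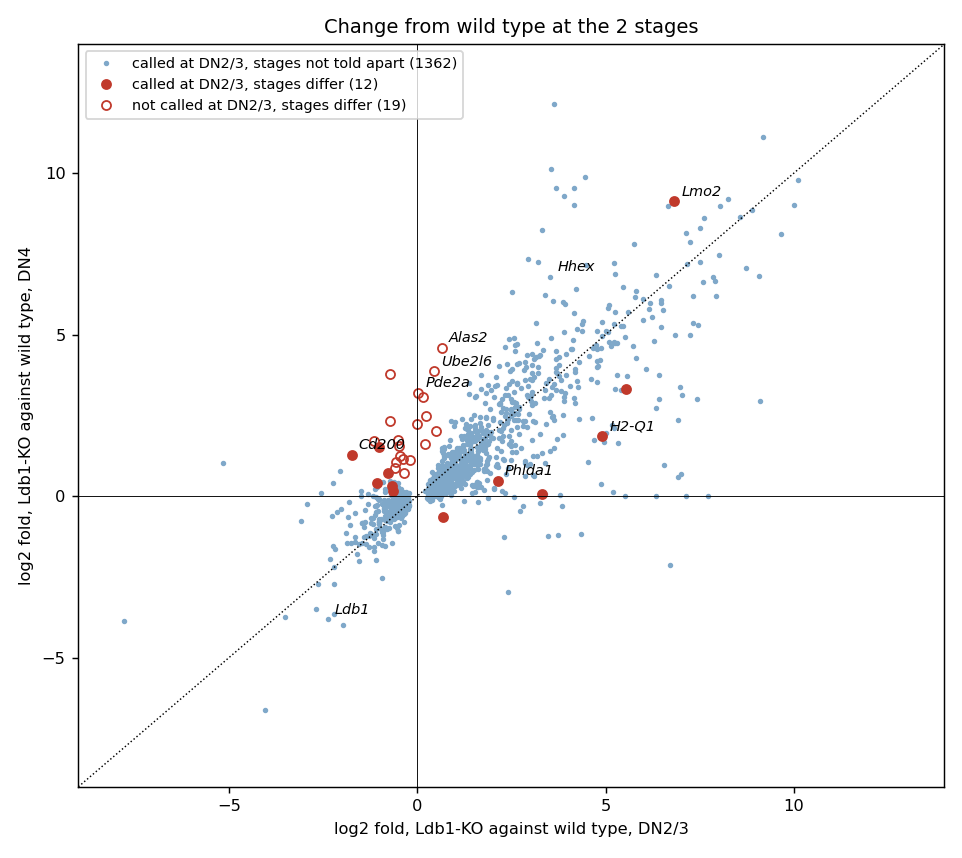
Log2 fold of Ldb1-KO against wild type at DN2/3 (horizontal) and at DN4 (vertical). Drawn are the 1374 genes called at DN2/3 and 19 genes not called there that differed between stages. The 31 genes that differed between stages in the test without a replicate block are marked, 12 of them called at DN2/3 and 19 not. With the block within genotype that test called 2811 genes, which are not marked. Genes that passed neither test are not drawn. The stages use separate libraries, but library series goes with genotype at both and same-numbered libraries deviated together. Most genes called at both lie on the same side of 0.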

How the data were processed

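RNA of sorted thymocytes was sequenced in 28 libraries (TruSeq RNA V2 kit, HiSeq2500, paired-end 101-base reads, per the labels). The authors deposited raw, whole-number read counts for 24421 gene symbols. STAR 2.5.2a, featureCounts 1.4.6-p3 and mm10 are named in the submitters' processing notes, while the annotation and the treatment of strand and of reads that match several genes are not stated there. A read that fits several genes may thus be counted for any of them or dropped.

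The 28 libraries were fitted together, with 1 term for each of the 6 groups, by edgeR 4.0.16 (R 4.3.3, Python 3.11.15) with its own filter on low counts by group, TMM scaling and the robust quasi-likelihood test. The filter keeps a gene that is high enough in any 1 group, so a gene absent from wild type could enter only through groups where it is high. P-values were adjusted by the Benjamini-Hochberg method over all genes tested. DESeq2 1.42.0 was an alternative. Tested on simulated data (14183 genes, Ldb1-KO against wild type at DN2/3), the fit called 70% of genes changed 2-fold and 93% of those changed 4-fold, with 5.2% false calls. The simulation changed 100 genes by each fold, none of them at the lowest wild-type levels. It held no library series, GC trend or mix of sexes, so its share of false calls is not that of the data. A fold against a group without counts used a floor of 3 counts, and such bounds cover counting error only. Positions and shared sequence came from GENCODE M21 (mm10), which matched 24026 symbols, 650 of them through older names in RefSeq.

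The rule for named genes took Ldb1 and Lmo2. It added the 10 called genes that rose most and the 10 that fell most, where libraries did not overlap and the higher mean was at least 5 CPM, the 2 members of each of 13 lists with the smallest adjusted p (or the most abundant where none was called), and the 3 largest stage differences each way. The rules by size left out predicted or unnamed genes, T-cell receptor and immunoglobulin segments, histone cluster genes and ribosomal protein pseudogenes. Marker lists numbered 14. The members and lists were chosen with earlier results of these data known. The genes with little shared sequence, the other genes described and the alternatives on shared sequence, GC content, genes near Ldb1 and the block within genotype were chosen after values were seen. Same-numbered libraries of the 2 stages deviated together in wild type and in Ldb1-KO (correlation across genes of their deviations from the group mean 0.153 to 0.332 in wild type and 0.289 to 0.531 in Ldb1-KO), so the numbers pair stages there. Lmo2tg libraries were not checked for this. Some items of the gene lists are not reported here.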

Additional observations from a re-analysis of the deposited data

Results flagged for a closer look

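Of 230 groups of libraries checked for 115 genes, 21 held a library far from the rest (Dixon's test at 95%), and chance flags about 1 in 20 groups. Wild-type library 1 stood apart in 8 of them. It was high for Cd8a (1.26 CPM against 0.473 to 0.605 in the others), Cd8b1 (4.13 against 2.26 to 2.49), Cd2 (2.33 against 0.751 to 1.00), Adam19 (3.18 against 0.0685 to 0.483), Psd (23.98 against 16.96 to 17.6) and Ikzf3 (21.2 against 14.8 to 15.3). It was low for Dntt (2357 against 2760 to 2791) and Clec4e (1.46 against 1.90 to 1.96). Wild-type library 2 was high for Srp54b (0.372 CPM against 0.00894 to 0.0343), Morf4l1-ps1 (2.08 against 0.925 to 1.12) and Zbed5 (7.398 against 5.10 to 5.28). Wild-type library 3 was high for Gzmb (0.331 against 0.0878 to 0.125).

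In Ldb1-KO, library 1 was high for Lrrc4b (33.0 CPM against 3.98 to 8.57) and Cldn2 (26.0 against 3.14 to 8.403) and low for Cd34 (6.83 against 9.58 to 10.3). Library 2 was high for Rab44 (114 against 71.8 to 83.8) and low for Phlda1 (6.87 against 15.2 to 17.7). Library 3 was high for Ly6a (73.4 against 32.2 to 39.5) and low for Lck (1140 against 1341 to 1405). Cd2 was high in library 4 (15.9 against 12.1 to 13.2) and Cd8b1 in library 5 (24.6 against 18.7 to 20.04).

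The change of Ldb1-KO from wild type differed between DN2/3 and DN4 for 9 of the genes described, by edgeR's test without a replicate block. With the block within genotype others passed too, among them Rag1, Cd3d, Lck, Notch3, Nfkb2 and Psd. The log2 fold at DN2/3 minus that at DN4 was 3.05 for H2-Q1, 1.65 for Phlda1, 1.31 for Snx8, -0.79 for Cd3g, -2.32 for Lmo2, -3.03 for Cd200, -3.17 for Pde2a, -3.43 for Ube2l6 and -3.96 for Alas2. Phlda1, a pleckstrin-homology protein gene, averaged 3.29 CPM in wild type and 14.5 in Ldb1-KO at DN2/3, with 25.1% of its sequence in other genes and log2 folds of 2.13 there and 0.48 at DN4 (adjusted p of the difference 0.0248). Snx8, a sorting nexin, had log2 folds of 0.67 at DN2/3 and -0.64 at DN4 (adjusted p of the difference 0.0355). Without 1 library the difference of Phlda1 ended in 8 of 18 cases (adjusted p 0.0513 to 0.0985) and that of Snx8 in 13 of 18.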

How the results depend on the processing

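The 1374 calls at DN2/3 became 1369 with RLE scaling, 1366 with upper-quartile scaling (961 higher and 405 lower), 1216 without the filter on low counts, 1906 by DESeq2, 1459 with the GC trend taken out and 1344 without the genes near Ldb1. Fitted alone, the 9 libraries gave 3037 calls, 1931 higher and 1106 lower, and the cause was not tested. Leaving out 1 library at a time gave 764 to 1406. The 642 calls over 2-fold ranged from 622 to 918 under the other settings on all genes, were 436 among genes with little shared sequence, and ranged from 443 to 634 without 1 library. With the replicate number as a block the calls at DN2/3 were 2449 (1508 higher and 941 lower). Same-numbered wild-type and Ldb1-KO libraries did not deviate together (correlations across genes 0.065, 0.097, -0.04 and -0.003), so they share only a number there.

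The 31 stage differences were 25 with RLE scaling and 26 without the filter, but 284 by DESeq2 (72 higher and 212 lower), 1737 when the 18 libraries were fitted alone (788 and 949), 134 with the replicate block (24 and 110) and 2811 with the block within genotype. They ranged from 6 to 47 without 1 library, with 8 without wild-type DN2/3 library 2, 15 without library 3, 20, 8, 10 and 15 without Ldb1-KO DN2/3 library 1, 3, 4 and 5, 6, 7 and 7 without wild-type DN4 library 1, 3 and 4, and 15, 47 and 8 without Ldb1-KO DN4 library 1, 4 and 5. Of 990 values of the genes described without 1 library, 868 kept their direction and side of the threshold and 122 no longer passed it. Of 960 under the other settings 926 kept both, 21 no longer passed, 12 newly passed and 1 reversed, that of Npm1, which was not called, to -0.09 (adjusted p = 0.841) with the GC trend taken out. The replicate block newly called Hoxa9 (adjusted p = 0.029), Cdkn1a (0.0496) and Myc (0.04) and ended the call of Slc2a3 (0.0527), as well as those of Egr1 and Gadd45b. The lowest depth in the comparison, 28095652 counts, leaves genes at 0 with a limit of 3 counts.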
